A study of Homo sapiens with 2 samples.

Results

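The genes described here are 7 long non-coding RNA (lncRNA) genes with known roles in cancer, NEAT1, MALAT1, SNHG1, GAS5, PVT1, PCA3 and HOTAIR, out of 18702 lncRNA genes annotated on the 24 chromosomes of the peak list. The binding profile is that of LSD1 (KDM1A), a demethylase of histone H3 lysine 4, in PC-3M-luc cells. These are luciferase-marked human prostate carcinoma cells that descend from the PC-3 line. They were used at passages 17 to 20, with a genotype given as control. Chromatin immunoprecipitation with an LSD1 antibody gave 1 library and input DNA gave 1 library, so the spread between replicates is unknown and nothing was tested. For each gene, every peak sharing a base with the annotated gene body was taken, together with the nearest peak on either side, and 13 of the 20110 peaks lay over the 7 bodies. The genes were chosen by name with these peaks already known, and the peaks were selected on their overlap with them, so counts, scores and covered shares are a description. A peak list holds no RNA level, so neither the expression of these genes nor markers of the cell type were measured. Lack of a peak means that none passed the authors' threshold and leaves weaker binding unmeasured.

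LncRNAs act as RNA, often by holding proteins together or at a site in the nucleus. NEAT1 is the scaffold of paraspeckles, MALAT1 is a nuclear RNA of splicing speckles, and SNHG1 and GAS5 are spliced hosts whose introns carry box C/D small nucleolar RNAs (snoRNAs). PVT1 is the long neighbour of the MYC oncogene, PCA3 is a prostate cancer marker transcribed antisense within PRUNE2, and HOTAIR, from the HOXC cluster, is known as an RNA that binds the Polycomb complex PRC2 and the LSD1-CoREST complex.

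LSD1 peaks covered the whole of NEAT1, MALAT1 and SNHG1 (3 of 7 genes, where 4.11% of all lncRNA genes were wholly covered), most of GAS5 and a small share of PVT1, and none overlapped PCA3 or HOTAIR. A peak lay over the body of 5 of the 7 genes (71.4%). The same held for 23.0% of all lncRNA genes (exact 95% binomial interval 22.4 to 23.6) and for 61.2% of protein-coding genes. A peak lay within 1 kb of an annotated start site of the same 5 genes, against 21.4% of lncRNA genes and 58.1% of protein-coding genes. The median share of the gene body under peaks was 68.9% over the 7 genes and 0% over all lncRNA genes, or 18.8% over the 4305 lncRNA genes that had a peak.

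The start sites differed in base composition, and their sequences are shown because the presence or absence of a peak at the start divides the genes. Each runs 5′ to 3′ on the strand of the gene, from 250 bases before to 50 bases from the canonical GENCODE start onward, read from GRCh37 (hg19). Capitals mark matches on either strand to 8 motifs, searched as literal letters that are spelled out with the counts further on. The first 4 starts lay under a peak and that of PCA3 did not. PVT1 and HOTAIR are given by counts only.
NEAT1, chr11:65190019-65190318, plus strand: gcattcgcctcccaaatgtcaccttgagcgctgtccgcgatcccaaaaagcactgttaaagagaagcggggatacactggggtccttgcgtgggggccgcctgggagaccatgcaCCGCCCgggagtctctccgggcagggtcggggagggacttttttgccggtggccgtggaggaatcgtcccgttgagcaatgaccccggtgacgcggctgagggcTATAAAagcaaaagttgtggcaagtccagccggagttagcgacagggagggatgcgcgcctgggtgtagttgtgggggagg
MALAT1, chr11:65264861-65265160, plus strand: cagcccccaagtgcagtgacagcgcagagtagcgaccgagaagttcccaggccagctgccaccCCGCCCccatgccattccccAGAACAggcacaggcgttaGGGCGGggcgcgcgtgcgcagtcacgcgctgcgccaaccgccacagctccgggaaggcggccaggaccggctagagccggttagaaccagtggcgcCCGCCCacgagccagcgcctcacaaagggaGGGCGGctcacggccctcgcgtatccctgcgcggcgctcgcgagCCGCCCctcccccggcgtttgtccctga
SNHG1, chr11:62623345-62623644, minus strand: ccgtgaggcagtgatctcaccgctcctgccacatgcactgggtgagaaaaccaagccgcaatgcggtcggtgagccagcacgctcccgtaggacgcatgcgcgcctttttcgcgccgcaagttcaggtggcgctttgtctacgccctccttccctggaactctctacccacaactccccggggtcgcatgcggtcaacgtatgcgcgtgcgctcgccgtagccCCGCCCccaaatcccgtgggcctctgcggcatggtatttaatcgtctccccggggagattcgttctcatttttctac
GAS5, chr1:173837078-173837377, minus strand: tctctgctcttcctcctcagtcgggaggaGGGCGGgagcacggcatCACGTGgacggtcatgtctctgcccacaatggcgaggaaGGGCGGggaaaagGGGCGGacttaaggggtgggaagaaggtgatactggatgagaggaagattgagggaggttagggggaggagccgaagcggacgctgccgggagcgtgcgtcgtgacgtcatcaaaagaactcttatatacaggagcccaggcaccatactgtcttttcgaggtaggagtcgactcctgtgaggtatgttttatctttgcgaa
PCA3, chr9:79319487-79319786, plus strand: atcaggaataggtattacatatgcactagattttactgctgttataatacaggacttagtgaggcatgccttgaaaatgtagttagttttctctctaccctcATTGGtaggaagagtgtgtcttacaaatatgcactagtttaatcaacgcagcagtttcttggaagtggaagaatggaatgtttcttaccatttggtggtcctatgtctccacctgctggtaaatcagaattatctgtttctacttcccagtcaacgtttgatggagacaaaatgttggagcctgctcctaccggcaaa

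The GC box, searched as GGGCGG, occurred in the windows of NEAT1, MALAT1, SNHG1, GAS5 and PVT1, and in neither the PCA3 nor the HOTAIR window. With 500 bases on each side of the start, HOTAIR had 3 GC boxes and PCA3 still had 0. It occurred in 22.5% of the windows of the same length at all 18702 lncRNA starts and in 61.4% of those of protein-coding genes. MALAT1 had 5 GC boxes, PVT1 had 4, GAS5 had 3, and NEAT1 and SNHG1 had 1 each. Of the 7 genes, 1 (NEAT1) had the TATA box TATAAA, with its first base at -31 from the start, a motif found in 15.8% of lncRNA windows. GAS5 and HOTAIR each had 1 E-box, the letters CACGTG, against 5.48% of lncRNA windows. MALAT1 had 1 match to AGAACA, a single arm of the androgen receptor element (20.5% of lncRNA windows), and PCA3 had 1 CCAAT box, searched by those 5 letters (35.3%). The AP-1 motif TGANTCA is found in 9.98% of lncRNA windows and matched none of the 7. Neither did the ETS motif, whose letters are CCGGAAG (4.97%), nor the forkhead motif for FOXA factors, which reads TGTTTAC (4.17%). A missing match says only that these letters were not there. No motif overlapped another in the printed windows. CpG dinucleotides numbered 51 in the PVT1 window, 34 in MALAT1, 30 in SNHG1, 25 in HOTAIR, 22 in NEAT1, 19 in GAS5 and 3 in PCA3, where the median over lncRNA windows was 5.

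Over the 1000 bp around the start, 5 of the genes were CpG-rich, meaning over 55% GC and a ratio of observed to expected CpG above 0.65. SNHG1 (56.5%, ratio 0.840), MALAT1 (58.4%, ratio 0.730) and GAS5 (58.4%, ratio 0.697) were CpG-rich and had a peak at the start. PVT1 (66.4%, ratio 0.819) and HOTAIR (64.7%, ratio 0.702) were CpG-rich and had none. NEAT1, at 64.2% and a ratio of 0.612, fell just short of the CpG limit and lay under a peak, and PCA3, at 47% and 0.382, was CpG-poor and had none. Among lncRNA genes, 68.2% of 3002 CpG-rich canonical starts and 11.4% of 15700 CpG-poor ones had a peak within 1 kb. By this measure 4 of the 7 genes had a peak at the canonical start, against 20.5% of all lncRNA genes. Base composition was not held equal in that comparison. CpG-rich starts made up 5 of the 7 and 3002 of all 18702. The plot of start sites by base composition sets the genes among all lncRNA starts.

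**Figure D1:**
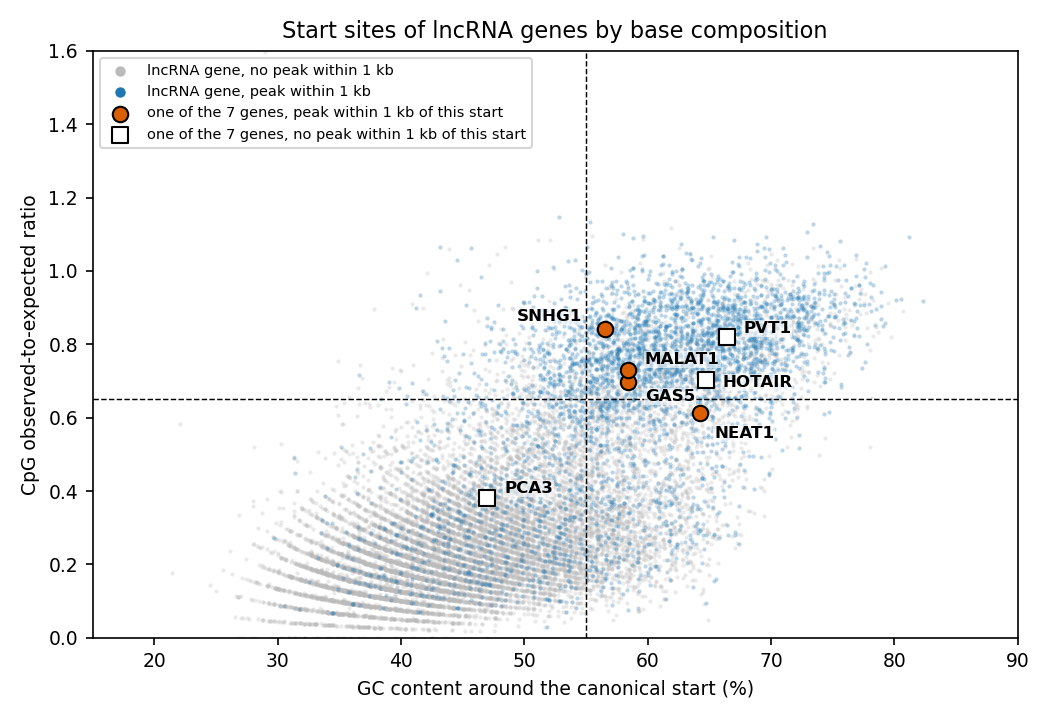
GC content (x, %) and CpG observed-to-expected ratio (y) of the 1000 bp around the canonical start of each lncRNA gene, blue where a peak lay within 1 kb and grey where none did, with the 7 genes named and dashed lines at 55% and 0.65. PVT1 and HOTAIR lie among CpG-rich starts but carried no peak there, unlike SNHG1, MALAT1 and GAS5.

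NEAT1 lay inside a single peak that was wider than the gene. The gene (ENSG00000245532, hg19 chromosome 11, 65190245 to 65213011, plus strand) is 22767 bp long, and the peak ran for 36238 bp, from 65180957 to 65217194. It began 9288 bp before the gene and ended 4183 bp past it, so that 62.8% of the peak lay in NEAT1, and all 9 annotated start sites were under it. Only 1 peak of the list was wider, a 36286 bp peak at SLCO4A1 with a score of 171.57. Scores are those the authors deposited for each peak, used here only for ranking and description. The NEAT1 peak scored 3100, a value shared by 206 peaks and exceeded by 19, so it may be a limit of the scale and gives no order among them. Of the 225 peaks at or above 3100, the NEAT1 peak was the widest.

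Around NEAT1 the list was dense, with 104 peaks within 1 Mb of the gene, where the median lncRNA gene had 13 (quartiles 6 and 28). Upstream, the same peak reached 40 bp into the 3′ end of FRMD8, which encodes an iRhom-binding protein, and covered ENSG00000290057, a 417 bp lncRNA gene. The next peak upstream (65178987 to 65180562, score 165.84) lay in FRMD8, 9682 bp from NEAT1. Downstream, the next peak was 8812 bp away (65221824 to 65223399, score 226.58), over the pseudogene FAUP4.

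MALAT1 also lay wholly under 1 peak, whose edges were close to those of the gene. The gene (ENSG00000251562, chromosome 11, 65265111 to 65275544, plus strand) is 10434 bp long, and the peak spanned 12195 bp, from 65263709 to 65275903, with a score of 3100. It began 1402 bp before MALAT1 and ended 359 bp past its 3′ end, so 85.6% of it lay in the gene and all 40 annotated starts were covered. The antisense lncRNA gene TALAM1, 8121 bp on the minus strand, lay wholly inside the same peak, as did ENSG00000270117, a 610 bp lncRNA gene on the minus strand. ChIP peaks carry no strand, so the peak cannot be given to one of the 3 genes. The RefSeq promoters of MALAT1 (GRCh38.p14), matched by exact sequence to GRCh37, start 98 and 1405 bp downstream of the GENCODE canonical start, and both were under the peak. The nearest peak upstream was 2582 bp away (65258435 to 65262528, score 1101.91).

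NEAT1 and MALAT1 are neighbours transcribed in the same direction, and the 52099 bp between them carried further peaks. Over the 85300 bp from the start of NEAT1 to the end of MALAT1, 9 peaks covered 52644 bp, or 61.7%. Between the genes, 37.3% was covered, by the ends of the 2 outer peaks and by 7 peaks of 681 to 4094 bp. The highest-scoring of these 7, at 1740.42, lay at 65243464 to 65245721 over the lncRNA gene ENSG00000289883, and the lowest, at 64.18, at 65254098 to 65256432 over LINC02736. The maps of peaks over the 7 genes show how far each peak reached beyond its gene.

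**Figure D2:**
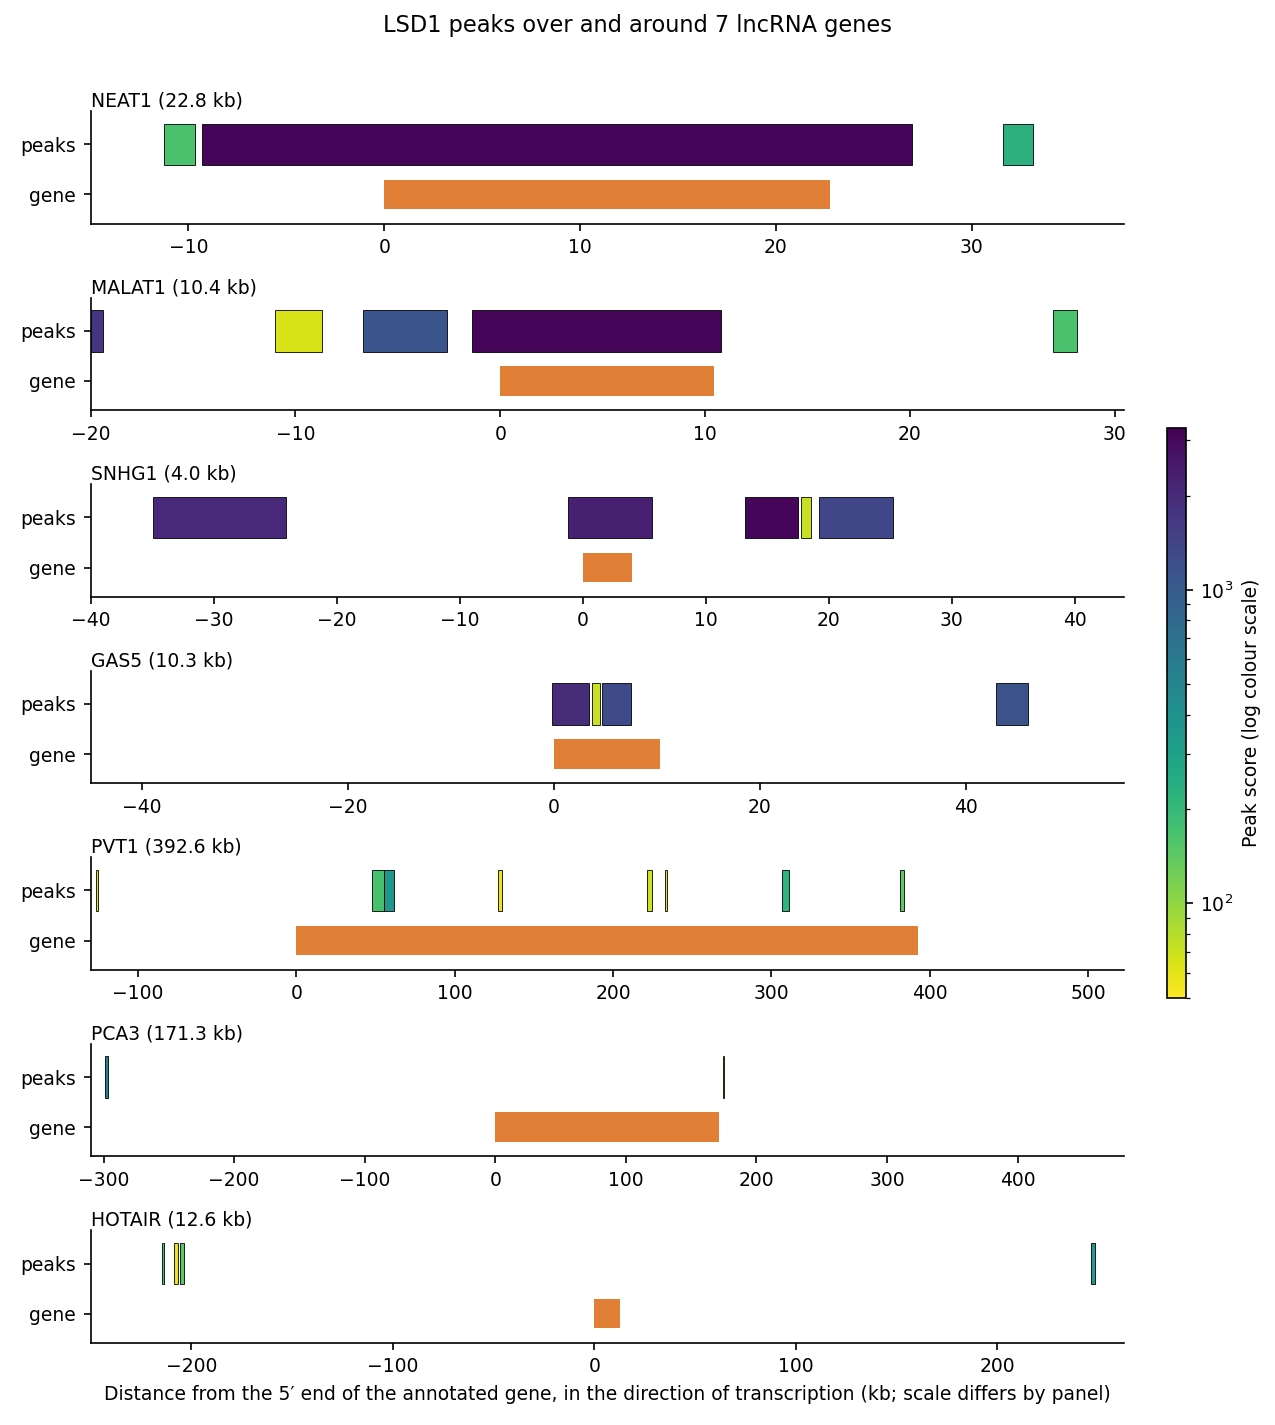
Peaks (upper row of each panel, coloured by score on a log scale) and gene body (orange) of each gene, with distance in kb from the 5′ end of the gene in the direction of transcription. The x axis differs between panels. NEAT1, MALAT1 and SNHG1 lie under 1 peak each, GAS5 under 3, PVT1 holds 7 peaks away from its 5′ end, and PCA3 and HOTAIR hold none.

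SNHG1, a snoRNA host, was covered from end to end. The gene (ENSG00000255717, chromosome 11, 62619450 to 62623425, minus strand) is 3976 bp long and lay in a 6795 bp peak from 62617829 to 62624623, with a score of 2275.68. The peak extended 1198 bp upstream of the gene and 1621 bp past its 3′ end, and it held all 26 annotated starts and the RefSeq start, which is 37 bp downstream of the canonical one. The upstream extension reached into SLC3A2, the heavy chain shared by several amino acid transporters. That gene runs the other way, with its outermost annotated start at 62623476. The peak overlapped 1148 bp of it, so it cannot be given to 1 of the pair. The canonical SLC3A2 start lies further off. The nearest canonical start of a protein-coding gene to that of SNHG1 was the WDR74 start, 16332 bp away. High-scoring peaks lay on both sides. On the 3′ side of SNHG1 the nearest peak (62605905 to 62610252, score 3100) was 9197 bp away, over WDR74 and the U2 small nuclear RNA gene RNU2-2P. On the 5′ side it was 24077 bp away, in SLC3A2 (62647503 to 62658315, score 2069.09), with its midpoint 260 bp from an annotated SLC3A2 start.

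GAS5, the second snoRNA host, carried 3 peaks over its 5′ part and none over its 3′ end. The gene (ENSG00000234741, chromosome 1, 173827697 to 173838020, minus strand) is 10324 bp long, and peaks covered 7112 bp, or 68.9%. The peak at the 5′ end (173834607 to 173838174) scored 1970.51 and was 3568 bp wide, the middle one (173833539 to 173834373) scored 70.19 and was 835 bp wide, and the third (173830512 to 173833374) scored 1283.59 and was 2863 bp wide. They were separated by 233 and 164 bp, counted here as called. The last 2815 bp at the 3′ end was free of peaks.

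Of the exonic bases of GAS5, taken over all its transcripts, 76.8% lay under peaks, and of the intronic bases 61.6%. All 13 annotated starts were covered. The RefSeq start, matched by sequence, is at -1056 bp from the canonical one, position 173838183, and lay just outside the edge of the 5′ peak at 173838174. That peak also covered SNORD78, a snoRNA in a GAS5 intron, and 955 bp of ZBTB37, a zinc finger gene that runs the other way from a canonical start 391 bp from that of GAS5. The ZBTB37 start lay under the same peak, so this peak cannot be given to GAS5 or ZBTB37 alone. The third peak covered all of the antisense gene GAS5-AS1. Upstream of the gene, the nearest peak was 152935 bp away, at RC3H1 (173990956 to 173992049, score 243.45).

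PVT1 held the most peaks of the 7 genes, all of them inside the gene and away from its canonical start. The gene (ENSG00000249859, chromosome 8, 128806772 to 129199347, plus strand) is 392576 bp long, and its 7 peaks covered 27487 bp, or 7%. From the 5′ end they scored 173.4, 358.3, 57.78, 68.69, 60.18, 215.52 and 141.46, and 5 of the 7 were below the median score of the list, 205.87. Their widths were 7698, 6355, 2177, 3204, 1216, 4416 and 2421 bp in the same order, and 6 of them were wider than the median peak of 1649 bp. The first peak (128854345 to 128862042) began 47558 bp downstream of the canonical start, and the second (128862086 to 128868440) followed after 43 bp. This pair made up 51.1% of the covered bases.

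Of the 132 annotated start sites of PVT1, 11 lay under a peak, of which 9 were in the second. The median distance from a start to the nearest peak was 32135 bp. Exonic bases over all transcripts were covered at 10.7% and intronic bases at 6.74%. No peak lay over the 3 microRNA genes annotated inside PVT1, MIR1205, MIR1207 and MIR1208. MYC, the nearest protein-coding gene, whose canonical start is 58310 bp from that of PVT1, had none either. The nearest peak upstream of PVT1 was 125125 bp away (128680539 to 128681646, score 61.09), and the nearest downstream was 240330 bp away, in LINC00824 (129439678 to 129441274, score 81.24). Only 9 peaks lay within 1 Mb of PVT1, the 7 of the gene included. Cells of the PC-3 family are aneuploid, and the number of copies of this region was not analysed here.

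PCA3 and HOTAIR had no peak over the body. PCA3 (ENSG00000225937, chromosome 9, 79306896 to 79478223, plus strand) is 171328 bp long and lies within PRUNE2 on the opposite strand. The nearest peak was 3006 bp past the 3′ end of PCA3, in PRUNE2 (79481230 to 79482213), with a score of 54.69, near the lowest score of the list, 50. It lay 161493 bp from the canonical PCA3 start and 57733 bp from the nearest of its 16 annotated starts. On the 5′ side the nearest peak was 296782 bp away, at the promoter of RFK, the riboflavin kinase gene (79008271 to 79010113, score 543.15). The RefSeq promoters of PCA3 start 59615 and 59617 bp downstream of the canonical start, and neither start was under a peak.

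HOTAIR (ENSG00000228630, chromosome 12, 54356092 to 54368740, minus strand) is 12649 bp long and overlaps HOXC11. The nearest peaks were 203721 bp upstream, in SMUG1, a uracil-DNA glycosylase gene (54572462 to 54574156, score 142.52), and 233933 bp downstream, at the promoter of CALCOCO1 (54120294 to 54122158, score 335.52). The interval without peaks was 450303 bp long and held all 9 HOXC genes, none with a peak. The surroundings were otherwise not sparse, with 54 peaks within 1 Mb. An interval of this length was not rare. Of all gaps between neighbouring peaks, 6.96% were at least as long, and these held 63.9% of the bases in gaps. For the 471116 bp interval around PCA3 the shares were 6.71% and 63.1%.

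Against lncRNA genes of their own length class, NEAT1, MALAT1 and GAS5 stood near the top in the share covered. Among the 4904 lncRNA genes of 10 to 50 kb, 22.5% had a peak, and the median share in those was 6.09%. Only 3 of the 4904 (0.0612%) lay wholly under peaks: NEAT1, MALAT1 and SSTR5-AS1, an antisense gene at a somatostatin receptor locus. GAS5 was one of the 18 genes (0.367% of the class) with a share at least as large as its own. HOTAIR is of the same class. Of the 5869 lncRNA genes of 1 to 5 kb, the class of SNHG1, 20.7% had a peak and 4.28% were wholly covered. Of the 620 genes over 200 kb, 31.9% had a peak with a median share of 0.448%, and PVT1 was one of 3 with a share of at least 7%, with LINC-PINT (14.4%) and ENSG00000264545 (8.51%). PVT1 had rank 5 of all lncRNA genes in covered bases, where LINC-PINT, with 45819 bp, had rank 1. Of the 2154 genes of 50 to 200 kb, the class of PCA3, 28.0% had a peak.

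**Figure D3:**
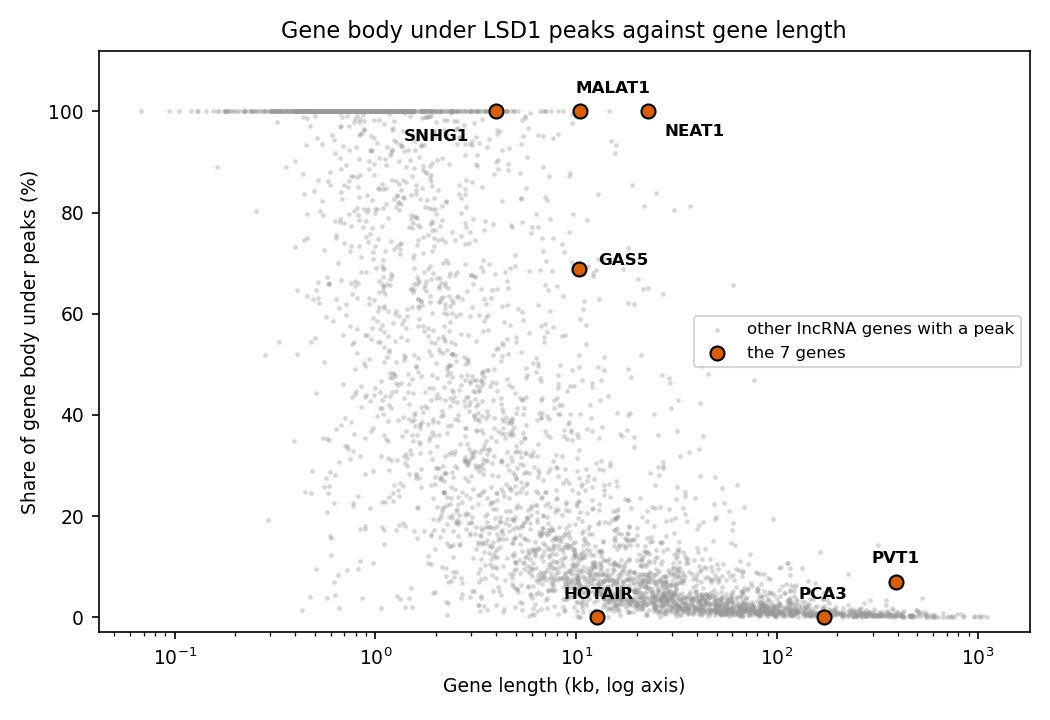
Share of the gene body under peaks (y, %) against gene length (x, kb, log axis) for lncRNA genes with a peak (grey) and the 7 genes (orange). NEAT1 and MALAT1 lie at 100% among genes over 10 kb, where most others are far lower, and PVT1 lies at 7% among the longest genes.

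Wholly covered lncRNA genes of at least 5 kb numbered 11 of 10146 (0.108%), against 63 of 17274 protein-coding genes (0.365%). The 5 longest of the 11 were NEAT1, SSTR5-AS1 (14645 bp, score 3100), MALAT1, LINC01089 (8640 bp, score 938.52) and TALAM1, the last of which shares the MALAT1 peak. Likeness was taken as the distance over percentile ranks of length, number of peaks, share covered and highest score, 4 measures in 1 library. By it, the lncRNA gene outside the set most like NEAT1 was SSTR5-AS1 (distance 7.2 percentile points), and that most like MALAT1 was TALAM1 (4.16). The nearest to SNHG1 was ENSG00000230698 (2.29), to GAS5 THBS3-AS1 (4.42) with 4 peaks over 59% of 10500 bp, and to PVT1 ABHD15-AS1 (9.04) with 4 peaks over 4.73% of 146544 bp.

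The 13 peaks over these genes were wide and poor in GC and CpG for this list. Their width ran from 835 to 36238 bp with a median of 3568 bp, against 1649 bp over all peaks, and 11 of 13 were above that median. Their GC content ran from 40.5% to 59.0% with a median of 47.3%, against 55.2% over all peaks, and 12 of 13 were below it. The exception was the 1216 bp peak in PVT1. The median CpG ratio was 0.279 against 0.509, with the 5′ peak of GAS5, at 0.570, as the 1 peak above. Wide peaks reach into gene bodies, and width was not held equal in these comparisons. PVT1 alone gave 7 of the 13 peaks, so they are not independent cases. Scores over PVT1 ran from 57.78 to 358.3, and the middle GAS5 peak, at 70.19, fell in that range. The other 5 peaks over NEAT1, MALAT1, SNHG1 and GAS5 scored 1283.59 to 3100. Over all peaks the median score was 205.87 and the upper quartile 538.525.

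**Figure D4:**
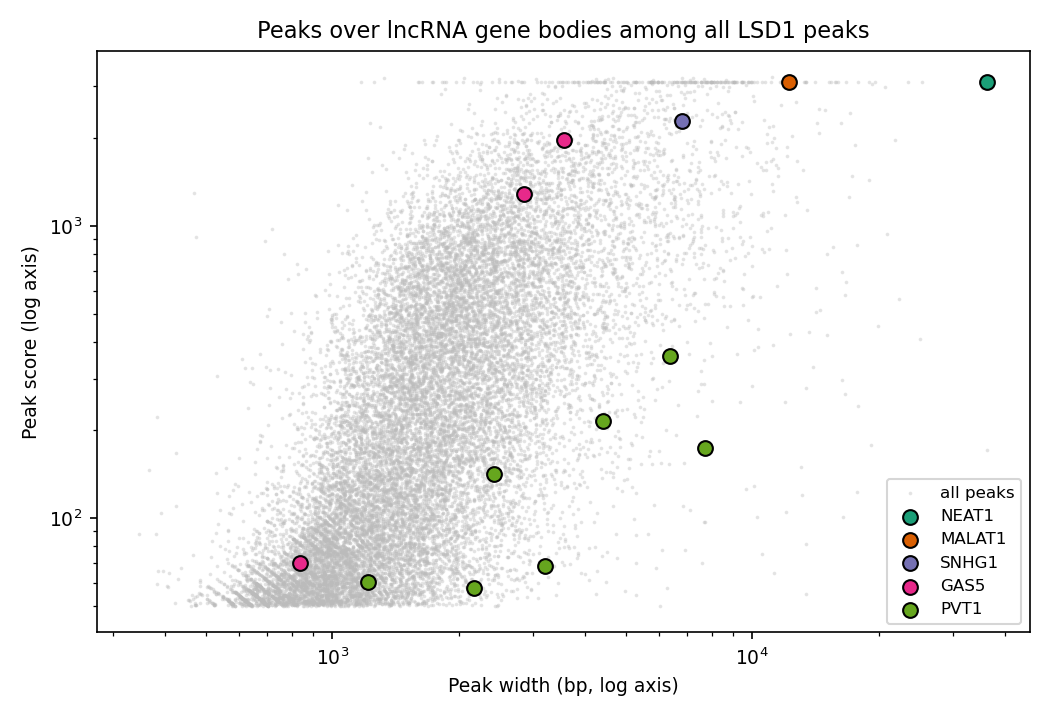
Width (x, bp, log axis) and score (y, log axis) of the 20110 peaks (grey) and of the 13 peaks over the 5 genes that had one (colours). The NEAT1 peak is at the right edge at a score of 3100. Of the 7 PVT1 peaks, 6 are wider than the median peak and 5 score below the median.

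Motif letters within the peaks differed between the genes. AP-1 letters occurred 16 times in the 27487 bp of PVT1 peaks, or 0.582 per kb, of which 9 were in the second peak. Over all peaks they occurred 0.293 times per kb. The NEAT1 peak had 0.138 per kb (5 matches), the MALAT1 peak 0.164 (2), the GAS5 peaks 0.138 (1) and the SNHG1 peak 0.442 (3). With so few matches, the order of these genes is uncertain and was not tested. GC boxes occurred 0.291 times per kb in PVT1 (8 matches), 0.294 in SNHG1 (2), 0.656 in MALAT1 (8), 0.690 in NEAT1 (25) and 1.38 in GAS5 (10). All were below the 1.88 per kb of all peaks, and their order was not tested either. CCAAT letters were denser than the 1.18 per kb of all peaks in MALAT1 (2.46), GAS5 (1.93), SNHG1 (1.91) and PVT1 (1.38), and less dense in NEAT1 (1.08). These are counts of letters, not of sites bound.

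Most other snoRNA host genes carried a peak, as SNHG1 and GAS5 did. Of 25 further snoRNA host lncRNA genes, 23 had a peak over the body (92%) and 23 had one at a start, where 23.0% and 21.4% of all lncRNA genes did. SNHG14 and SNHG18 had none over the body. The median share covered was 64.9%, and 6 were wholly covered, as were 4.11% of all lncRNA genes. Length was not held equal here. Of the wholly covered hosts, SNHG19 (614 bp), SNHG9 (615 bp) and SNHG25 (540 bp) are under 1 kb, and lncRNA genes under 1 kb with a peak had a median share of 100%. A score of 3100 was shared by 6 of the 25 hosts, SNHG19, SNHG3, SNHG9, ZFAS1, SNHG8 and SNHG25. A further list of 7 genes joined the box C/D snoRNP machinery to UPF1, a helicase of nonsense-mediated mRNA decay that is not part of it. All 7 had a peak, led by NOP56 (1744.96), NOP58 (916.4) and RUVBL1 (768.99), an assembly ATPase. NOP56, a core protein and itself a snoRNA host, was wholly covered. Over all protein-coding genes the share with a peak was 61.2%.

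Of 31 other lncRNA genes studied in cancer found in the annotation, 21 (67.7%) had a peak over the body, against 23.0% of all lncRNA genes. The median share was 2.4%, and none was wholly covered. Gene length was not held equal in this or the next list, and 31.9% of lncRNA genes over 200 kb had a peak. Some overlaps were small, such as 0.169% of the 858566 bp of HULC. The highest scores were at LINC-PINT, a p53-induced transcript with 14 peaks (2308.27), MIR22HG, the host of miR-22 (2046.21, 96.7% covered), and LINC00511 (1706.49). H19, MEG3, KCNQ1OT1 and 7 others had none. TUG1 and TINCR of this list are classed as protein-coding in the annotation. Of 16 lncRNA genes studied in prostate cancer, 7 (43.8%) had a peak, also against 23.0% of all lncRNA genes, led by LINC01126 (3100), PCAT6 (756.43) and TMPO-AS1 (601.09). PCGEM1, SCHLAP1, ARLNC1 and PCAT1 were among the 9 without one.

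The protein partners of NEAT1, MALAT1 and HOTAIR had peaks at nearly every gene, where 61.2% of all protein-coding genes had one over the body and 58.1% at a start. All 20 paraspeckle protein genes had a peak at a start, with the highest scores at HNRNPH3 (2385.12), HNRNPA1 (2107.67) and HNRNPK (2072.16), all RNA-binding proteins. The median share of their bodies under peaks was 10.7%, and none was wholly covered as NEAT1 was. All 15 genes of nuclear speckles and of MALAT1 processing had one, led by the splicing factor genes SRSF2 (2487.11), SRSF3 (2114) and SRSF7 (1688.52). Of 9 genes of the complexes known to bind HOTAIR, 8 had a peak, led by RCOR1 (3100), EZH2 (952.36) and KDM1A itself (877.5), with SUZ12 the exception. The lists were drawn up with results of these data known and nothing is called particular to them.

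**Figure D5:**
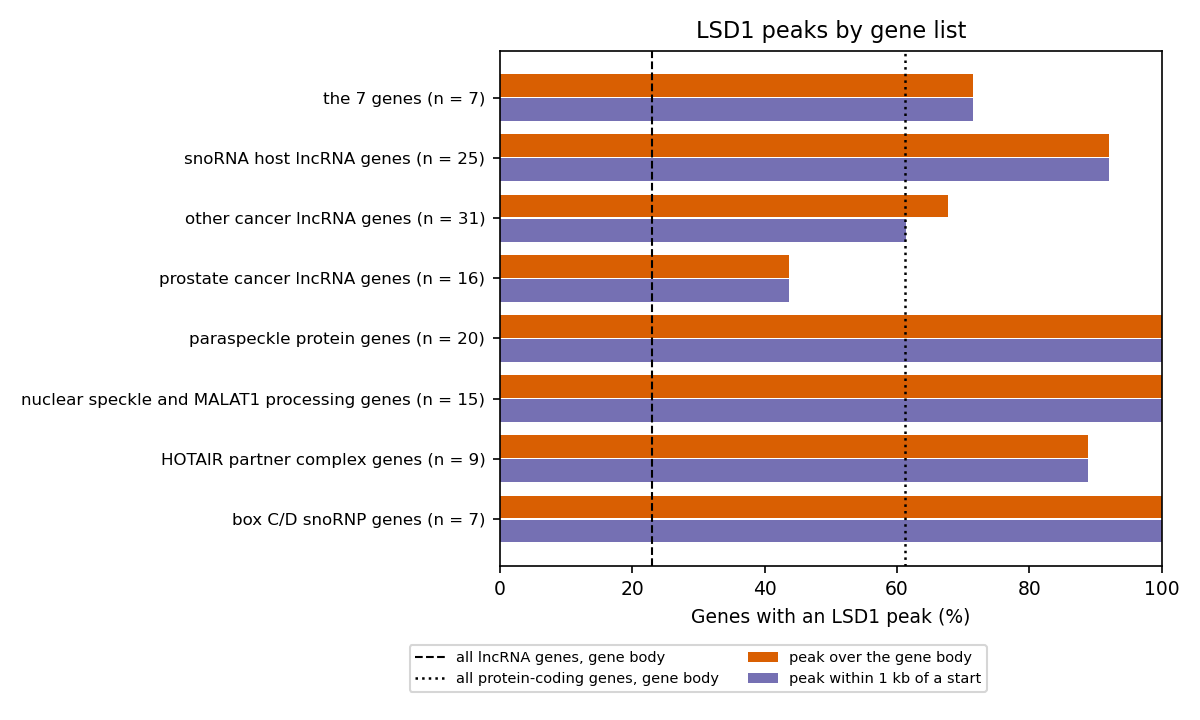
Share of genes (x, %) with a peak over the gene body (orange) and within 1 kb of a start (purple) in the 7 genes and in 7 further lists, with the number of genes in each. The dashed line marks 23.0% of all lncRNA genes and the dotted line 61.2% of all protein-coding genes. The prostate cancer lncRNA genes, at 43.8%, are the lowest list.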

How the data were processed

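LSD1 ChIP-seq and input DNA of PC-3M-luc cells were measured, 1 library each. Per the labels' protocols, HiSeq reads were aligned by bowtie 2 against hg19. MACS 1.41 and Bowtie2 are named in the submitters' processing notes, which list the mouse build mm10 beside hg19. The peaks are on human chromosomes and mm10 was not used. Not given in the sources used here are their settings, the read numbers, the treatment of duplicates and whether input was the control. Depth is therefore unknown. The deposited score per peak is the authors' value and was used to rank, filter and describe. Peaks fitted within GRCh37 (0 past a chromosome end, 0 overlapping pairs).

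Genes came from GENCODE 44 mapped to GRCh37 and coordinates are 1-based. A gene had a peak where any base overlapped its span over all transcripts, and distances are the bases between. Intervals are exact 95% binomial and cover counting error only. The 7 genes, the lists and the CpG classes were chosen with earlier results of these data known. Named genes were the 7 genes, genes under or next to their peaks, the 3 highest-scoring genes of each list (ties by width, then name), the 5 lncRNA genes of at least 5 kb with the largest share covered (ties by length, a choice made after the data were seen) and the most similar lncRNA gene for each gene with a peak. Others are named because they lack a peak or for comparison, after their values were seen. Alternatives were score limits, removal of the widest 1% of peaks, midpoints, canonical transcripts or starts, a 5 kb window and promoter windows of 500 bases on each side. The code was tested on simulated data before use. Tools were samtools 1.23.1 and Python 3.11.15 with pysam 0.24.0, scipy 1.17.1, pandas 2.3.3, numpy 2.4.6 and matplotlib 3.10.9. The nearest peak downstream of MALAT1 and of GAS5 and the HOTAIR start sequence are not reported here.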

Additional observations from a re-analysis of the deposited data

How the results depend on the processing

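No paired analysis was possible because LSD1 and input had 1 library each. Among the alternatives, 14 values of the main comparisons stayed inside their binomial interval (counts: within 1.5 times) and 17 moved. For the median share over the 7 genes, any change at all was counted as moved. For the covered share of a single gene, the interval counted each base as a separate draw. Neighbouring bases share a peak, so that label is only descriptive. Of the values of single genes, 53 stayed and 10 moved. Part of this agreement was fixed in advance. PCA3 and HOTAIR had no peak to lose, and the NEAT1, MALAT1 and SNHG1 peaks scored above both score limits. Without the widest 1% of peaks, which by construction removes the NEAT1 and MALAT1 peaks, 3 of the 7 genes had a peak over the body and 3 had one at a start, the median share covered was 0%, and the shares of lncRNA genes were 22.4% (body) and 20.8% (start). With a score of at least 100 these shares were 19.8% and 18.9% and the median over the 7 genes was 60.8%. At or above the median score they were 16.5%, 15.7% and 60.8%, and PVT1 kept 2 of its 7 peaks, over 2.74% of its body. With the peak midpoint required, the lncRNA shares were 13.3% in the body and 17.3% at a start. They were 26.7% with the 5 kb window and 20.5% with the canonical start, where 4 of the 7 genes, without PVT1, had a peak. The canonical transcript gave a median share of 69.2%. With windows of 500 bases on each side of the start, 21 pairs of gene and motif matched, against 10 in the shorter windows, and HOTAIR gained 3 GC boxes. Without read numbers, how far depth limits weak peaks is unknown.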
